A study of Mus musculus with 12 samples.

Results

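The genes of the unfolded protein response and the chaperones of the endoplasmic reticulum (ER) were compared between M-MDSCs of aged and young mice. The group was fixed by name and held 35 genes, among them the ER stress sensors, their transcription factors, the folding machinery of the ER lumen and the proteins of ER-associated degradation (ERAD). All 35 were found among the 23420 genes of the deposited count table, and 34 had enough counts to be tested. Only Derl3 was left out by the filter on low counts. M-MDSCs (monocytic myeloid-derived suppressor cells) were sorted by the authors as CD11b+Ly6G-Ly6Chi cells from tibial bone marrow of C57BL/6JNIA mice, and stranded RNA libraries were sequenced. The aged group held 6 male mice of 24 months and the young group 6 male mice of 6 months, with 1 library per mouse, and no treatment or transgene is listed for either group.

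Proteins that enter the ER are folded with the help of BiP (Hspa5), GRP94 (Hsp90b1), the lectin chaperones calnexin and calreticulin and the disulfide isomerases, and those that fail to fold are returned to the cytosol and degraded. When unfolded proteins accumulate, the membrane sensors IRE1 (Ern1), PERK (Eif2ak3) and ATF6 are activated. IRE1 splices the mRNA of Xbp1, PERK phosphorylates eIF2α, which slows translation and favours that of Atf4, and ATF6 is cut to release a transcription factor. Counts per gene show the level of each mRNA, while splicing of Xbp1, phosphorylation and cleavage were not measured in these libraries.

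ATF6 and XBP1 are known to act through the ER stress response element (ERSE), in which CCAAT and CCACG are separated by 9 bases of any kind, and through ERSE-II, in which ATTGG and CCACG are separated by 1 base. Promoter windows of RefSeq (GRCm38.p6) of 300 bases, reaching from upstream of the start site into the transcript, were searched on both strands, and a window was found for 31 of the 35 members. Both motifs end in CCACG, and no member window held both. ERSE letters were present for 9 of these 31 members (29.0%), against 37 of 27025 genes of the RefSeq table (0.137%). ERSE-II letters were found for 2 members and for 12 genes of the table (0.0444%). The matches are shown because they divide the members by letters that the choice of genes did not read. The members were named as genes of the response in which these factors act, so their higher share is not an independent result. They are written 5′ to 3′ along the motif, with the fixed letters in capitals.
Hspa5 (BiP), chr2:34772025-34772043: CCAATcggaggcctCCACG
Hsp90b1 (GRP94), chr10:86705533-86705551: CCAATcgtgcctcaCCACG
Hsp90b1 (GRP94), chr10:86705638-86705656: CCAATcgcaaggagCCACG
Dnajc3 (p58IPK), chr14:118937827-118937845: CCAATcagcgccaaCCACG
Calr (calreticulin), chr8:84847075-84847093: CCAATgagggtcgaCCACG
Canx (calnexin), chr11:50325800-50325818: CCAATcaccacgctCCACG
Pdia6, chr12:17266491-17266509: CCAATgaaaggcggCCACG
Syvn1 (HRD1), chr19:6046532-6046550: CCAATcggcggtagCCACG
Creld2, chr15:88819520-88819538: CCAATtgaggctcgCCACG
Derl3, chr10:75893242-75893260: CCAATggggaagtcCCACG
Dnajb11, ERSE-II, chr16:22857852-22857862: ATTGGcCCACG
Herpud1, ERSE-II, chr8:94386377-94386387: ATTGGgCCACG

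Hspa5 is the classical target gene of this element, and its whole window (chr2:34771840-34772139, plus strand) is given with the ERSE letters in capitals.
Hspa5 promoter: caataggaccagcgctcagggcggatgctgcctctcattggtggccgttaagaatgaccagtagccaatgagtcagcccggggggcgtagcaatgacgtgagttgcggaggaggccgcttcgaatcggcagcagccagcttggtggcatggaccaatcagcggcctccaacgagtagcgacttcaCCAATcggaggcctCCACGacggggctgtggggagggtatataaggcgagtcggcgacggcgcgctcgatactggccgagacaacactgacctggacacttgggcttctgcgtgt
The ERSE match in this window spanned bases -65 to -47 relative to the start site. The shorter letters TGACGTGG of the unfolded protein response element were found in no member window and for 193 genes of the table (0.714%). TGATGNAA, a core of the C/EBP-ATF response element bound by ATF4, was found for Chac1, Herpud1 and Trib3, and for 4.51% of genes. A match is a description of the letters, not evidence of binding.

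**Figure D1:**
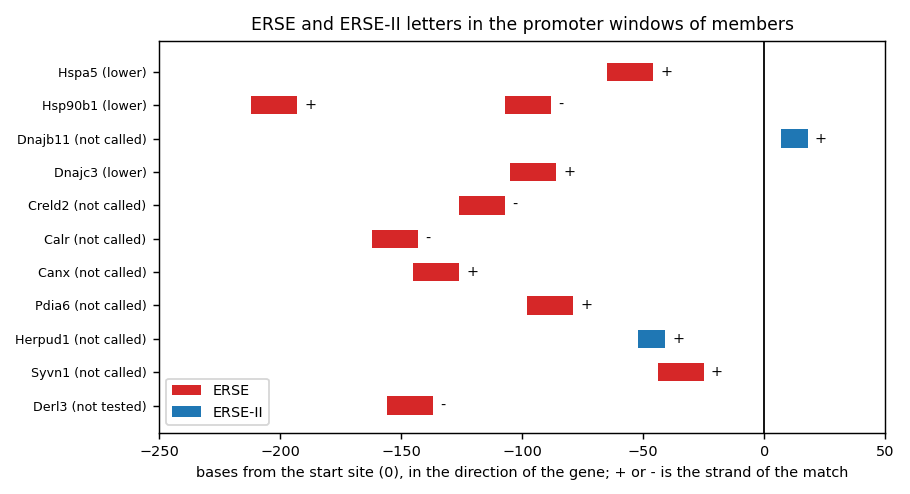
Position of the ERSE and ERSE-II letters in the promoter windows of the 11 members that hold them, in bases from the start site, with the call of each gene between the ages in brackets. The ERSE matches lie upstream of the start site, and none of the genes that hold one is called higher in aged mice, though Canx is after the length correction.

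Between 4613239 and 16300374 fragments per library were counted, more in every aged mouse but 2 than in any young mouse, and levels are given as CPM, the counts of a gene scaled to a common library total with TMM factors. The libraries were checked against markers of the labelled cells. Ly6c2 lay at 605 to 799 CPM in aged and 366 to 594 CPM in young mice, whereas the monocyte markers Ccr2 (5.02 to 61.9 CPM in aged mice) and Cx3cr1 (0.427 to 15.4 CPM) were low. The 10 neutrophil markers, such as the granule genes Ltf and Ngp, took 13.6% to 15.5% of the counts in aged and 9.90% to 13.7% in young mice, against 0.753% to 0.973% and 0.932% to 0.979% for the 10 monocyte markers. Among these 10, Cxcr2, S100a8, S100a9 and Retnlg also stand in the gene set with which the study scored M-MDSCs, so they do not separate the labelled cells from neutrophils. The granule genes outside that set were abundant as well, with Ngp at 34229 to 44337 CPM in aged and 24838 to 35707 CPM in young mice, and each value below is that of the whole sorted sample. Fewer cells of a type and less RNA per cell cannot be told apart in such samples. Several marker lists differed between the ages. Resident macrophage markers were called higher for 8 of 8 tested, neutrophil markers for 6 of 10 and promyelocyte markers for 4 of 4. Immediate-early genes, which respond within minutes to a stimulus, were called lower for 9 of 10 and cell division genes for 3 of 8. Of all genes tested, 22.4% were called higher and 23.0% lower. After a correction of each library for the trend of its counts with exon length, the neutrophil markers were called higher for 0 of 10 (median log2 fold change 0.06, edgeR), the promyelocyte markers for 2 of 4 and the cell division genes lower for 1 of 8, while the counts for resident macrophage and immediate-early genes were as before. Plasma cells, B cells, T and NK cells and plasmacytoid dendritic cells had 9 tested markers. None of these was called in limma-voom, or in edgeR before this correction, where 2 had an unadjusted p under 0.05 (Cd79b and Nkg7). DESeq2 called Cd79b and the plasma cell marker Sdc1, which edgeR did not test, higher. After the correction edgeR called 1 plasmacytoid dendritic cell marker higher, and without aged replicate 4 it called the tested B cell marker higher. The 1 conventional dendritic cell marker tested was lower, and no erythroid marker was tested in edgeR, with Hba-a1 and Hbb-b1 at 0 in every library. Summed, the erythroid markers had 0.748 to 6.78 CPM in aged and 0.195 to 0.856 CPM in young mice. DESeq2 called 2 of them higher, among them Alas2, named after its values were seen, and edgeR with no filter on low counts also called 2 higher. Young replicates 5 and 6 stood apart, with 89974 and 91386 CPM of neutrophil markers against 120516 to 139436 CPM in the other young mice, and 1375 and 1335 CPM of cell division genes against 722 to 890 CPM, where the aged mice had 404 to 904 CPM. The part of these differences in the results below was not tested, except where a value without a library is given. Every young mouse had a lower sample number than every aged mouse in the file headers, so a change in preparation between them cannot be told apart from age.

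The question was whether expression of the unfolded protein response differs between the ages. Of the 34 members tested, 4 were called higher and 7 lower in aged mice, where called means an adjusted p-value under 0.05 in edgeR's quasi-likelihood test. Xbp1, Pdia4, Edem2 and Derl1 rose, and Atf4, Eif2ak3, Ppp1r15a, Hspa5, Hsp90b1, Dnajc3 and Ero1l fell. Among all 9742 genes tested, 45.4% were called, 22.4% higher and 23.0% lower, beside 32.4% of the members, 11.8% higher and 20.6% lower. This difference in shares was not tested, and it turned round after the length correction, with 23.5% of the members and 18.3% of all genes called higher and 20.6% and 16.5% lower. The median log2 fold change of the members was 0.03, against 0.0062 for all genes, with 18 positive and 16 negative values between -1.28 (Ppp1r15a) and 0.70 (Sdf2l1, not called). Of the 11 called members, 9 changed by less than 1.5-fold. The values of the ages did not overlap for 3 members, Atf4 and Hspa5, lower in every aged mouse, and Edem2, higher in every aged mouse, against 12.1% of all genes lower and 9.64% higher in this way, 21.8% in all. Summed over the members, the levels were 2771 to 3177 CPM in aged and 2970 to 3197 CPM in young mice and overlapped. The members therefore did not move as a block, and the roles are described one by one. Without young replicates 5 and 6, an alternative chosen after seeing the data, 3 members were called higher (8.82%, against 14.1% of all genes) and 6 lower (17.6%, against 17.9%), and Hsp90b1 and Pdia4 lost their calls.

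**Figure D2:**
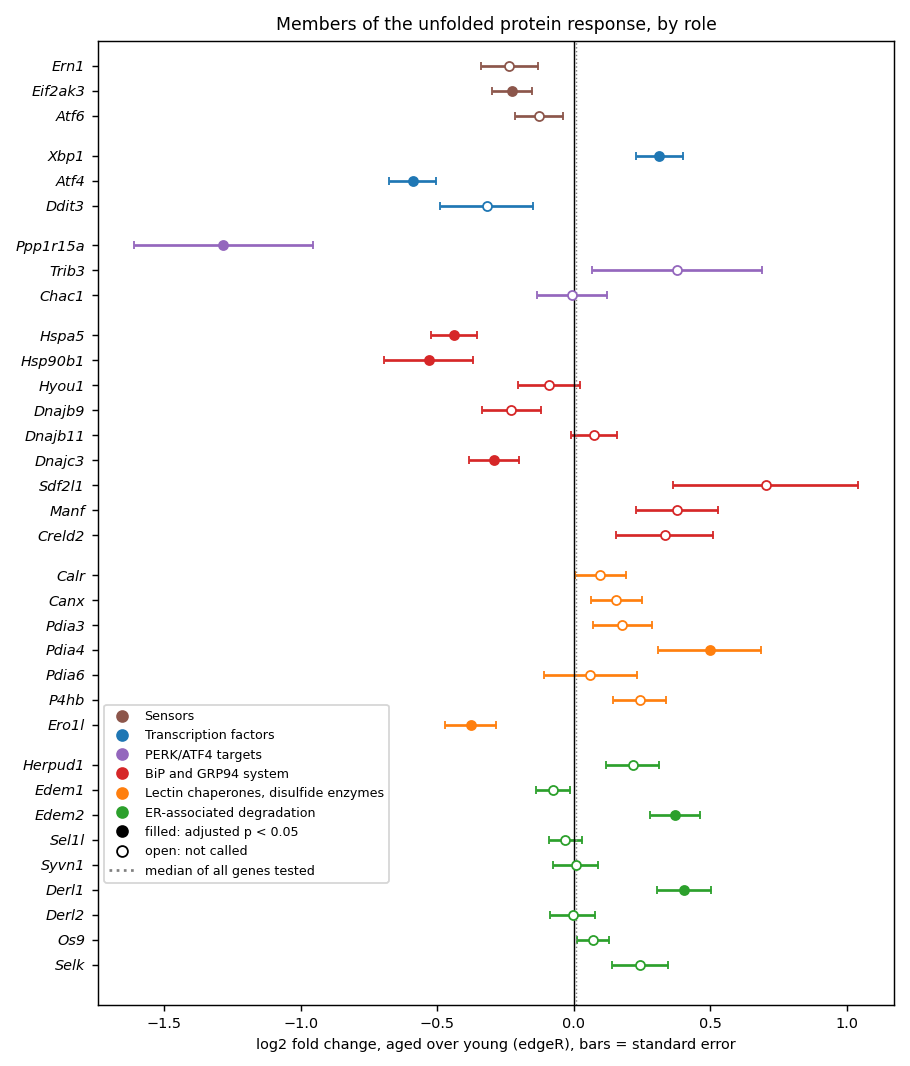
Log2 fold change (aged over young, bars are the standard error) of the 34 tested members, coloured by role. Filled points are called, and the dotted line is the median of all genes tested. The called members lie on both sides of 0, with Ppp1r15a at -1.28 as the lowest and Pdia4 at 0.50 as the highest called value.

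The sensors were measured first. Eif2ak3 (PERK; chr6:70844527-70905240, 17 exons, all coordinates of mm10) had 81.5, 93.9 and 109 CPM as the lowest, median and highest values of the aged mice and 104, 111 and 115 CPM in the young mice. It fell, with a log2 fold change of -0.23 (standard error, SE, of 0.073, edgeR adjusted p = 0.0195), and aged replicate 4 reached into the young range. Ern1 (IRE1) had a log2 fold change of -0.24 (SE 0.10, edgeR adjusted p = 0.0742) and was not called, with 26.03 to 33.5 CPM in aged and 28.4 to 40.5 CPM in young mice. Atf6 was not called either (-0.13, adjusted p = 0.248, edgeR). Its aged values lay at 40.8 to 57.0 CPM, with aged replicate 7 highest, and its young values at 44.9 to 52.7 CPM. Without aged replicate 7, both were called lower, Ern1 at -0.28 (adjusted p = 0.0424) and Atf6 at -0.21 (adjusted p = 0.0166, edgeR). All these are long transcripts. Across all genes the log2 fold change fell with exon length (Spearman's rho -0.48, where genes are not independent replicates), and a correction of each library for this trend left Eif2ak3 at -0.07 (adjusted p = 0.487) and turned Atf6 to 0.24 (adjusted p = 0.0330, edgeR).

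The transcription factors of the pathway went in different directions. Atf4 (chr15:80255184-80257541, 3 exons), the effector of the PERK branch and of the wider integrated stress response, had 85.0, 96.1 and 112 CPM as lowest, median and highest in aged mice and 129, 141 and 179 CPM in young mice. Every aged mouse lay below every young mouse. Its log2 fold change was -0.59 (SE 0.086, edgeR adjusted p = 1.33e-04), the smallest p-value of the members. Xbp1 (chr11:5520641-5525993, 5 exons), the substrate of IRE1, had 115, 142 and 160 CPM in aged and 98.9, 113 and 124 CPM in young mice, with only aged replicate 4 inside the young range. It rose by a log2 fold change of 0.31 (SE 0.086, edgeR adjusted p = 0.00885), and lost its call without normalization factors (0.23, adjusted p = 0.0657, edgeR). Ddit3 (CHOP), which is induced in prolonged stress, was scarce, with 3.57 to 6.52 CPM in aged and 5.08 to 6.85 CPM in young mice, and was not called (-0.32, adjusted p = 0.137, edgeR). After the length correction it was called lower, at -0.75 (adjusted p = 0.00557, edgeR).

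The ratio of Xbp1 to Atf4 counts within a library does not depend on how libraries are scaled. It was 0.692 to 0.903 in the young and 1.13 to 1.61 in the aged mice, without overlap. The pair was chosen after the values were seen, so the ratio is a description and carries no test.

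Among the targets of the PERK and ATF4 branch, Ppp1r15a (GADD34; chr7:45522917-45526268, 3 exons), which directs dephosphorylation of eIF2α, had the largest difference of all members. Its values were 2.13, 2.60 and 5.24 CPM in aged and 2.997, 6.21 and 14.04 CPM in young mice, from 14 to 138 counts per library. The log2 fold change was -1.28 (SE 0.33, edgeR adjusted p = 0.00549), and the ages overlapped, with aged replicate 2 above 2 of the young mice. Without young replicate 6, the highest, it was -0.94 (adjusted p = 0.0157, edgeR). Young replicate 6 also had the highest sum of immediate-early markers, 4584 CPM, against 3051 to 4050 CPM in the other young mice and 1822 to 2900 CPM in aged mice. Trib3, a pseudokinase that restrains ATF4, and Chac1, which degrades glutathione, were not called (log2 fold changes of 0.38 and -0.0065, edgeR adjusted p = 0.337 and 0.970). Trib3 was counted 9 to 52 times per library, which limits its precision.

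The BiP and GRP94 chaperone system held 9 tested members. In the main edgeR fit 3 were called lower (33.3%, against 23.0% of all genes) and none higher. At an unadjusted p under 0.05, 1 was higher (Manf), which DESeq2 also called, while limma-voom called none higher. In edgeR Manf was called higher with median-of-ratios size factors, with 10 counts in every mouse and in 2 of the 12 fits that left out 1 mouse. Hspa5 (BiP; chr2:34772090-34776529, 8 exons), the Hsp70 of the ER that also holds the sensors inactive, had 185, 216 and 227 CPM as lowest, median and highest in aged mice and 254, 275 and 348 CPM in young mice. The ages did not overlap. It fell by 26.2%, a log2 fold change of -0.44 (SE 0.083, edgeR adjusted p = 8.19e-04). Hsp90b1 (GRP94; chr10:86690841-86705444, 18 exons), the Hsp90 of the ER and the chaperone of integrins and Toll-like receptors, had 74.6, 98.6 and 155 CPM in aged and 118, 159 and 189 CPM in young mice. It fell by a log2 fold change of -0.53 (SE 0.16, edgeR adjusted p = 0.0151), and aged replicates 1 and 7 lay in the young range. Young replicates 5 and 6 had the highest values of both genes, and without these mice Hspa5 was at -0.35 (adjusted p = 0.00177) and Hsp90b1 at -0.41, no longer called (adjusted p = 0.0901, edgeR).

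Dnajc3 (chr14:118937932-118981702, 12 exons), a co-chaperone of BiP that also inhibits PERK, had 47.9, 52.2 and 69.4 CPM in aged and 62.2, 67.2 and 71.8 CPM in young mice. Its log2 fold change was -0.29 (SE 0.091, edgeR adjusted p = 0.0166), and only aged replicate 7 lay in the young range. After the length correction it was -0.09 (adjusted p = 0.434, edgeR). The other co-chaperones were not called. Dnajb9 (ERdj4) had a log2 fold change of -0.23, Hyou1 (GRP170, which exchanges nucleotide on BiP) -0.09 and Dnajb11 (ERdj3) 0.07, with edgeR adjusted p-values of 0.0939, 0.533 and 0.486. Dnajb9 was called lower after the length correction (-0.36, adjusted p = 0.0144, edgeR). Sdf2l1, Manf and Creld2, small secreted or luminal proteins that are induced in ER stress, had positive values of 0.70, 0.38 and 0.33 (edgeR adjusted p = 0.103, 0.0525 and 0.136). Each of these was highest in aged replicate 1, at 7.003, 27.3 and 9.78 CPM, and without that mouse their log2 fold changes were 0.39, 0.29 and 0.18. Summed over the 9 genes, the level was 544 ± 57.7 CPM (SD, n = 6) in aged and 682 ± 65.1 CPM (SD, n = 6) in young mice, and Hspa5 and Hsp90b1 made up most of it. Young replicates 5 and 6 had the highest sums, 705 and 785 CPM, and the other young mice had 650 ± 44.4 CPM (SD, n = 4), with 592 to 693 CPM beside 473 to 605 CPM in aged mice.

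**Figure D3:**
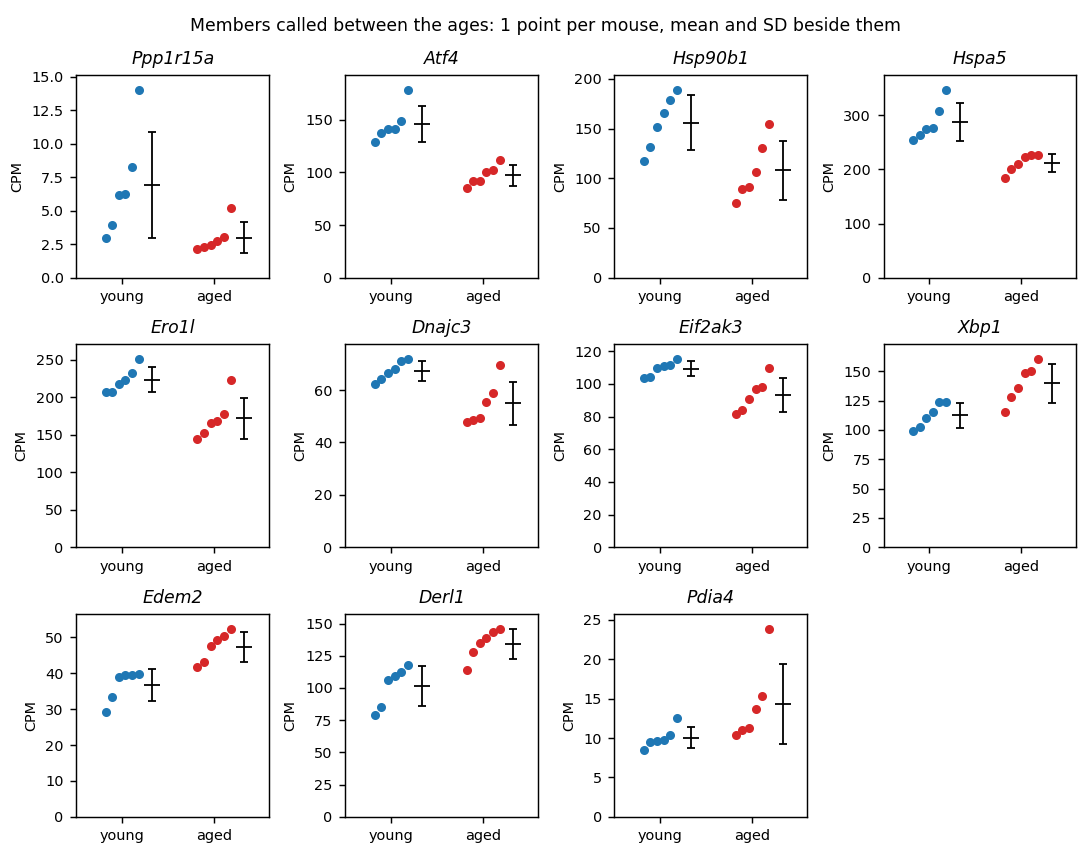
CPM of the 11 called members in every mouse, 1 point per mouse sorted within its age (young in blue, aged in red), with the mean and SD beside the points on axes that start at 0. The ages are apart for Atf4, Hspa5 and Edem2 and overlap for the other 8, and aged replicate 1 stands above the other mice for Pdia4.

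Of the 7 lectin chaperones and disulfide enzymes, 1 was called higher (Pdia4) and 1 lower (Ero1l), 14.3% each, against 22.4% and 23.0% of all genes. The log2 fold changes were positive for all but Ero1l, with a median of 0.16. Calr and Pdia6 turned negative after the length correction, Pdia6 also without TMM factors and Calr also without young replicates 5 and 6. Calr and Canx, which hold glycoproteins until they fold, had log2 fold changes of 0.10 and 0.16 and were not called (edgeR adjusted p = 0.420 and 0.181), though Canx was called higher after the length correction (0.29, adjusted p = 0.0284). Hspa5 therefore fell relative to them. The ratio of Hspa5 to Calr counts was 1.30 to 1.72 in aged and 1.70 to 2.97 in young mice, and that of Hspa5 to P4hb 0.808 to 1.25 in aged and 1.25 to 1.87 in young mice, 2 ratios chosen after the values were seen and with ranges that overlap slightly. P4hb (protein disulfide isomerase), Pdia3 (ERp57) and Pdia6 had log2 fold changes of 0.24, 0.18 and 0.06, with edgeR adjusted p-values of 0.0517, 0.193 and 0.795. P4hb was called higher with DESeq2 (adjusted p = 0.0442), as was Manf (adjusted p = 0.0490).

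Ero1l (Ero1a; chr14:45283087-45318572, 16 exons), the oxidase that passes electrons from the disulfide isomerases to oxygen, fell. It had 145, 167 and 223 CPM in aged and 207, 221 and 251 CPM in young mice, with a log2 fold change of -0.38 (SE 0.094, edgeR adjusted p = 0.00468), and only aged replicate 7 reached the young range. Without young replicates 5 and 6, the highest, it was -0.33 (adjusted p = 0.0245, edgeR). Pdia4 (ERp72; chr6:47796141-47813512, 10 exons) had 10.4, 12.5 and 23.9 CPM in aged and 8.45, 9.66 and 12.5 CPM in young mice, with a log2 fold change of 0.50 (SE 0.19, edgeR adjusted p = 0.0429). The highest value was that of aged replicate 1, and without it the log2 fold change was 0.29 and was not called (adjusted p = 0.0902, edgeR). The call of Pdia4 was kept in only 4 of the 12 fits that left out 1 mouse, and was lost with limma-voom (0.43, adjusted p = 0.0792).

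Aged replicate 1 was the highest aged mouse for 11 of the 34 members. It also had the highest sums of plasma cell markers, 97.4 CPM against 12.6 to 57.6 CPM in the other aged and 12.8 to 40.5 CPM in the young mice, and of resident macrophage markers, 1007 CPM against 84.4 to 329 CPM in the other aged mice. All 8 plasma cell markers had their highest aged value in this mouse, with Igj at 62.9 CPM, Pou2af1 at 8.23 CPM and Sdc1 at 6.78 CPM, while Tnfrsf17 had at most 3 counts in every library. Whether such cells contributed to the high values of this mouse was not tested. Without aged replicate 1, 3 members were called higher and 7 lower (8.82% and 20.6%, against 21.2% and 21.7% of all genes).

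ERAD was the role with the most tested members beside the BiP system, 9 of 10. In edgeR 2 were called higher (22.2%, near the 22.4% of all genes) and none lower. None was lower at an unadjusted p under 0.05 or with DESeq2 or limma-voom either. Edem2 (chr2:155701673-155729475, 11 exons), which starts the trimming of mannose from misfolded glycoproteins, had 41.6, 48.4 and 52.4 CPM in aged and 29.1, 39.2 and 39.8 CPM in young mice. No aged mouse lay in the young range, and the log2 fold change was 0.37 (SE 0.092, edgeR adjusted p = 0.00475). Derl1 (chr15:57869502-57892418, 8 exons), a membrane protein of the retrotranslocation channel, had 114, 137 and 146 CPM in aged and 79.0, 108 and 118 CPM in young mice. It rose by a log2 fold change of 0.40 (SE 0.099, edgeR adjusted p = 0.00424), with a small overlap through aged replicate 7. Young replicates 5 and 6 were the lowest young mice for both genes, and without them Edem2 was at 0.24 (adjusted p = 0.0286) and Derl1 at 0.25 (adjusted p = 0.0156, edgeR).

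The core of the HRD1 ligase differed little. Syvn1 (HRD1), its partner Sel1l and the lectin Os9 had log2 fold changes of 0.0065, -0.03 and 0.07 (edgeR adjusted p = 0.955, 0.699 and 0.357), and Derl2 was at -0.0043 (adjusted p = 0.970). Edem1, the most abundant ERAD member per kb of exon, had 350 to 434 CPM in aged and 395 to 437 CPM in young mice and was not called (-0.08, adjusted p = 0.337, edgeR). Herpud1, which recruits the ligase to its substrates, and Selk (Selenok), a selenoprotein of the degradation complex, had log2 fold changes of 0.22 and 0.24 (edgeR adjusted p = 0.0834 and 0.0633). Herpud1 was called higher in 2 and Selk in 3 of the 12 fits that left out 1 mouse, both without aged replicate 7. Derl3, a paralog of Derl1 found mostly in secretory cells, had 0 to 17 counts per aged and 0 to 6 per young mouse, and DESeq2, which kept it, did not call it (adjusted p = 0.371). Sel1l, Edem1 and Os9 were called higher after the length correction, at 0.26, 0.19 and 0.18, where Sel1l and Edem1 had turned from negative values.

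**Figure D4:**
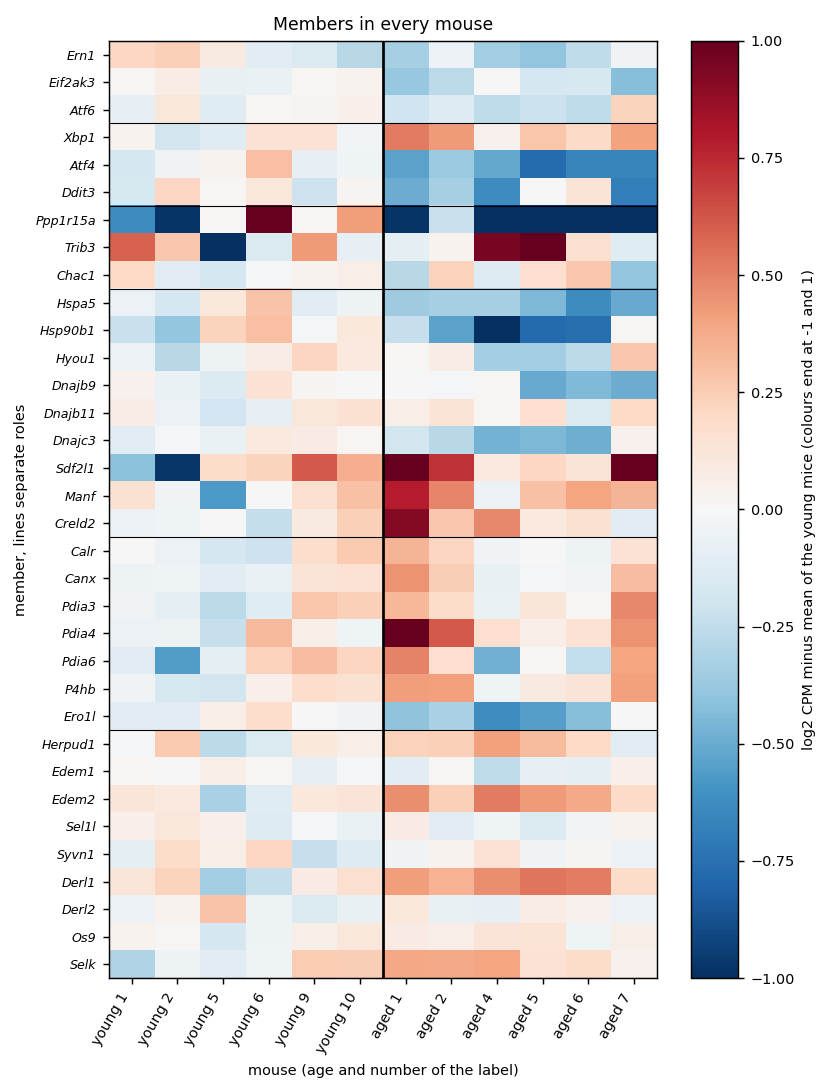
Log2 CPM (prior count 2) of the 34 tested members in each of the 12 mice, relative to the mean of the young mice, with lines between the roles in the order sensors, transcription factors, PERK and ATF4 targets, BiP and GRP94 system, lectin chaperones and disulfide enzymes, ERAD. Atf4 and Hspa5 are below the young mean in all 6 aged mice, Xbp1, Edem2 and Derl1 above it, and the positive values of Sdf2l1, Manf, Creld2 and Pdia4 are largest in aged replicate 1.

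Relative to exon length, P4hb was the most abundant member in aged mice (87.5 CPM per kb) and Hspa5 in young mice (110 CPM per kb, against 81.1 in aged mice). In aged mice Calr followed with 75.0 CPM per kb, and the spreads of P4hb and Hspa5, 30.6 and 16.8 CPM (SD), left their order there unresolved. In young mice Atf4 (84.6 CPM per kb), P4hb (74.1) and Edem1 (71.5) lay between Hspa5 and Calr (70.1). Atf4 stood at 56.3 CPM per kb in aged mice, and Xbp1 at 62.2 there and at 50.1 in young mice. The lowest tested members per kb in aged mice were Ppp1r15a (1.28 CPM per kb) and Trib3 (1.499). Between these lay the sensors, with Eif2ak3 at 20.8, Ern1 at 7.35 and Atf6 at 5.98 CPM per kb in aged mice.

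Among the 8 tested members with ERSE letters in the promoter window, 3 were called lower (Hspa5, Hsp90b1 and Dnajc3), none was called higher and 5 were not called (none higher at an unadjusted p under 0.05 in edgeR, nor called higher by DESeq2 or limma-voom), with a median log2 fold change of 0.03, where 23.0% of all genes were called lower. After the length correction Canx was called higher and Dnajc3 was not called, and without young replicates 5 and 6 Hsp90b1 was not called. Of the 22 tested members with a window and no ERSE letters, 3 were called higher and 4 lower, also with a median of 0.03. Calr, Canx, Creld2, Pdia6 and Syvn1 carry the same fixed letters as Hspa5, and their log2 fold changes lay between 0.0065 and 0.33. The sets are small and the difference was not tested. Both members with ERSE-II letters, Dnajb11 and Herpud1, were not called, nor were Chac1, Herpud1 and Trib3 with the TGATGNAA letters.

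The other genes of ER pathways, taken by name from lists outside the members, were called higher more often than lower. Of 129 such genes 115 were tested, and 40 were called higher (34.8%, against 22.4% of all genes) and 13 lower (11.3%, against 23.0%). Without young replicates 5 and 6, 26 were called higher (22.6%, against 14.1%) and 11 lower (9.57%, against 17.9%). Their median log2 fold change was 0.14. The translocon, through which nascent chains enter the ER, and the signal peptidase, which trims them, had 13 of 22 genes called higher and 1 lower, with a median of 0.26. Ssr3, a subunit of the translocon-associated complex, had the smallest p-value, with 210 to 230 CPM in aged and 123 to 168 CPM in young mice (log2 fold change 0.56, SE 0.076, edgeR adjusted p = 8.96e-05). Sec61g, the small subunit of the channel, had the largest rise (1.06, adjusted p = 0.00225), and Sec63, the partner of the channel that recruits BiP, was the gene called lower (-0.35, adjusted p = 0.00562, edgeR). After the length correction, 8 translocon genes were called higher and 2 lower, with a median of 0.12.

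**Figure D5:**
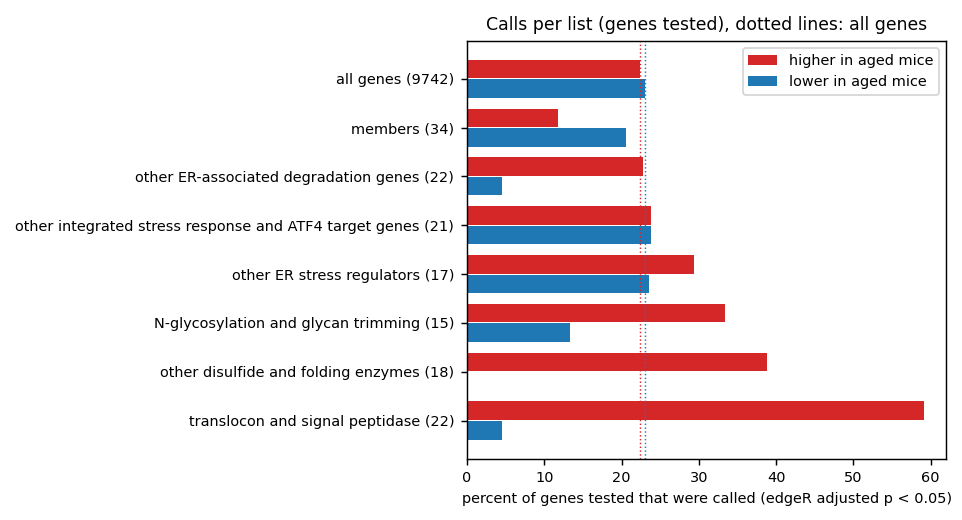
Percent of tested genes called higher (red) or lower (blue) in aged mice for all genes, the members and the lists of other ER pathway genes, with the number tested in brackets and dotted lines at the shares of all genes. The members show 11.8% higher and 20.6% lower, the translocon list 59.1% higher.

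Of the other folding and disulfide enzymes, 7 of 18 were called higher (38.9%, against 22.4% of all genes) and none lower in the main edgeR fit. None was lower at an unadjusted p under 0.05 or with DESeq2 or limma-voom. After the length correction 5 were called higher and 1 lower, and without TMM factors 7 and 1. Ppib (cyclophilin B) rose by 0.54 on the log2 scale (adjusted p = 8.20e-04, edgeR), while Txndc5 had the largest positive value (1.39, adjusted p = 0.0638, edgeR), with 27.6 CPM in aged replicate 1 and a median of 4.35 CPM in aged mice. Cnpy3 had the lowest value of the list (-0.14, adjusted p = 0.0973, edgeR). The N-glycosylation list had 5 of 15 genes higher and 2 lower (33.3% and 13.3%, against 22.4% and 23.0% of all genes). Its oligosaccharyltransferase subunits Ostc and Ddost both rose by 0.54 (edgeR adjusted p = 0.00231 and 0.00143). Uggt1, the glucosyltransferase that returns misfolded glycoproteins to calnexin, fell by 0.27 on the log2 scale (adjusted p = 0.0175, edgeR). After the length correction 4 genes of this list were called higher and none lower, so the call of Uggt1 was lost. Of 22 other ERAD genes, 5 were higher and 1 was lower (22.7% and 4.55%, against 22.4% and 23.0% of all genes). Vimp (Selenos) was at 0.39, the ubiquitin-conjugating enzyme Ube2j1 at 0.32 and Edem3 at -0.26 (edgeR adjusted p = 0.0427, 0.00273 and 0.0310). After the length correction 6 were higher and none was lower, Edem3 included, and none was lower without aged replicate 1 or without aged replicate 2.

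The lists of stress regulators were mixed. Of 17 other ER stress regulators, 5 were higher and 4 lower (29.4% and 23.5%, against 22.4% and 23.0% of all genes). The membrane-bound factors Creb3l1, Creb3 and Creb3l2 were at 0.58, 0.48 and -0.40 (edgeR adjusted p = 0.0402, 0.00175 and 0.0124). Of 21 other genes of the integrated stress response and ATF4 targets, 5 were higher and 5 lower (23.8% each, near the 22.4% and 23.0% of all genes). Slc7a11, the cystine transporter, fell from 117 to 148 CPM in young mice to 64.3 to 101 CPM in aged mice (log2 fold change -0.69, SE 0.092, edgeR adjusted p = 7.16e-05). Atf3 also fell (-0.75, adjusted p = 0.00581), and Aldh18a1, an enzyme of proline synthesis, rose (1.80, adjusted p = 0.00417, edgeR) from low levels of 0.108 to 1.62 CPM in young mice to 1.38 to 3.78 CPM in aged mice. Chosen after the values were seen, the amino acid transporter Slc7a5 (1.17) and asparagine synthetase Asns (0.52) also rose (edgeR adjusted p = 9.54e-05 and 8.75e-04).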

How the data were processed

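RNA of sorted bone marrow M-MDSCs from 12 mice was analysed from the table the authors deposited. Its values are raw counts of fragments per gene over the exons of a UCSC annotation of mm10, which the authors obtained with featureCounts 2.0.0 counting read pairs by strand at a minimum mapping quality of 60. No aligner is given in the sources used here. Reads of near-identical gene copies are lost under this filter. Samples were grouped by age from the labels, and no column was left out.

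The counts as deposited were tested with edgeR 4.0.16 in R 4.3.3, with filterByExpr, TMM factors and the quasi-likelihood test. P-values were adjusted by Benjamini-Hochberg over all 9742 genes tested, and the script was tested on simulated data. CPM use the library total after TMM scaling. The SE was the absolute log2 fold change divided by the square root of F. Fragments are not independent molecules, and the biological coefficient of variation was 15.7%. No pair of mice matched within sampling noise. By chi-square per gene the closest pairs were young replicates 1 and 2 (1.72), 9 and 10 (2.65) and 5 and 6 (4.14), each of neighbouring numbers. What the mice of such a pair share is not given in the labels, and the tests treat them as separate mice.

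The members and lists were chosen with earlier results of these data known. Every member is named, and of each ER pathway list the genes with the smallest p-value, the largest positive and the largest negative value, besides markers that show a list's level. Alternatives were DESeq2 1.42.0, limma-voom (limma 3.58.1), no TMM factors, median-of-ratios size factors, 10 counts in every mouse, no filter, a gene length correction, each mouse left out, young replicates 5 and 6 left out together and a block on the mouse numbers. Amino acid sequences of the members were not analysed here.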

Additional observations from a re-analysis of the deposited data

Results flagged for a closer look

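In 3 of the 68 groups formed by the 34 tested members and the 2 ages, 1 mouse stood far from the other 5, by a rule (Dixon's) that chance meets in about 1 of 20 groups. Atf6 had 57.0 CPM in aged replicate 7, against 44.6 CPM in the next aged mouse. Ppp1r15a had 5.24 CPM in aged replicate 2, against 3.001 CPM in the next. Pdia4 had 23.9 CPM in aged replicate 1, against 15.4 CPM in the next. The values without aged replicate 7 for Atf6 and without aged replicate 1 for Pdia4 are given with these genes above, and without aged replicate 2 the log2 fold change of Ppp1r15a was -1.50 (edgeR, adjusted p = 0.00303).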

How the results depend on the processing

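Of the 11 called members, 7 kept their call in each of the 12 fits that left out 1 mouse and in each of the 7 other settings that used all mice: Atf4, Hspa5, Hsp90b1, Ero1l and Ppp1r15a lower, Derl1 and Edem2 higher. Leaving out young replicates 5 and 6 together, chosen after seeing the data, ended the calls of Hsp90b1 and Pdia4, left 26 other ER pathway genes and 1392 of all genes called higher (2185 with all mice), and turned Dnajb11 (-0.015), Calr (-0.017), Derl2 (0.046) and Os9 (-0.0021). Leaving out 1 mouse gave 3 to 6 members called higher and 7 to 9 lower, a median of 0.021 to 0.053, and 33 to 41 other ER pathway genes called higher and 8 to 14 lower, where the lowest count came without aged replicate 6. Without TMM factors, which moved the median of all genes to -0.081 and the calls to 1682 higher and 2762 lower, 2 members were called higher and 9 lower, 32 other ER pathway genes were higher and 19 lower, the median of the members was -0.052, and Dnajb11 (-0.0090), Pdia6 (-0.020), Syvn1 (-0.085) and Os9 (-0.013) were negative. After the gene length correction 8 members were called higher and 7 lower (23.5% and 20.6%, against 18.3% and 16.5% of all genes). Dnajc3, Eif2ak3 and Pdia4 lost their calls, and the sign changed for Atf6 (0.24), Hyou1 (0.050), Calr (-0.020), Pdia6 (-0.028), Edem1 (0.19), Sel1l (0.26), Derl2 (0.069) and Selk (-0.11). With 10 counts in every mouse Derl2 was at 0.00048. Signs also varied when 1 mouse was left out for Chac1 (-0.066 to 0.072), Derl2 (-0.034 to 0.062), Pdia6 (-0.033 to 0.16) and Syvn1 (-0.039 to 0.052), none of them called.

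Mouse numbers 1, 2, 5 and 6 occur in both ages. The deviations of same-numbered mice correlated at -0.14, -0.065, -0.24 and -0.25, so no positive pairing by number was seen. Correlations this few could miss a weak one. With these numbers as a replicate block over 8 mice, 7 members were called higher and 5 lower (20.6% and 14.7%, against 16.1% and 18.9% of all genes), and Chac1 (0.12) and Syvn1 (-0.11) changed sign. Hsp90b1 (-0.57, adjusted p = 0.052), Ppp1r15a (-0.96, adjusted p = 0.153), Eif2ak3 (-0.24, adjusted p = 0.0840) and Pdia4 (0.50, adjusted p = 0.140, edgeR) were not called under the block. Over the same 8 mice without the block, an alternative chosen after seeing the data, 7 were called higher and 7 lower (20.6% each, against 21.3% and 23.5%), with Chac1 at 0.13 and Syvn1 at -0.11, and Ppp1r15a and Pdia4 were not called. Depth limits Derl3, Trib3, Sdf2l1, Ppp1r15a and Ddit3 most, and the depth and sample numbers that differ between the ages cannot be told apart from age.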
